A study of Mus musculus with 9 samples.

Results

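The comparison described here sets the *Vangl2 KD2* line of HC11 cells directly against the *Vangl2 KD1* line, by RNA-seq of 3 libraries a side, so that 6 of the 9 libraries of the series are its members and were chosen by their labels. HC11 is an epithelial line from the mammary gland of a BALB/c mouse that can be brought to make milk proteins in culture, and all libraries came from cells grown with serum, insulin and EGF and without any treatment to differentiate them. Each *KD* line was made by CRISPR/Cas9 with its own guide RNA and a repair template that carries stop codons, against *Vangl2*, a core gene of planar cell polarity. The remaining 3 libraries are the unedited parent line, *WT*, which enter the same fit, where they add to the filter, the scaling and the estimate of the spread, and which otherwise serve to place a level. The labels give the genotypes as Vangl2 knockout 1, Vangl2 knockout 2 and WT, and the study's text calls the edited lines *KD1* and *KD2*. Each edited line was grown from a single colony, so the edit, the guide and whatever else sets one colony apart from another cannot be told apart in a comparison of the lines. The labels number the replicates but do not say that they were separate cultures, and p-values then measure only the spread between these libraries, which may be technical. The comparison asks which programmes of cell state, adhesion, matrix and signalling differ between lines that carry an edit of the same gene.

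Mammary epithelium has an outer layer of basal cells, which carry keratins 5 and 14 and the factor p63 and attach to the basement membrane through laminins and the hemidesmosome, and an inner layer of luminal cells, which carry keratins 8 and 18 and are sealed by claudins. Epithelial cells hold each other by E-cadherin and P-cadherin. Cells that take on mesenchymal features lower these junction genes and raise vimentin, N-cadherin, fibronectin and fibrillar collagens, with the ZEB and SNAI repressors as known regulators. Stratifying epithelia under stress can instead turn on keratin 6, small proline-rich proteins and other parts of the cornified envelope, together with alarm cytokines such as interleukin 1 alpha. Parent HC11 cells are known to be mixed, with basal and luminal features side by side.

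*Vangl2* itself, on chromosome 1 (GRCm38, 172000960 to 172028444, minus strand), was at 2.77, 1.89 and 2.78 CPM (counts scaled to the size of the library) in the *KD1* libraries and at 3.64, 3.93 and 4.43 CPM in the *KD2* libraries. The *KD2* libraries lay above the *KD1* libraries, with a log2 fold change of 0.68 ± 0.17 and an adjusted p of 0.0025 (quasi-likelihood test of edgeR, Benjamini-Hochberg). The *WT* mean was 3.85 CPM, near *KD2* and above *KD1*. Here and below, a log2 fold change is *KD2* minus *KD1* with its standard error after ±, values of 3 libraries are given in the order of their replicate numbers, and a value in brackets after levels is that log2 fold change. Reads of the transcript do not check an edit that adds stop codons, so these levels are no check of the labels. For the protein, the paper's immunoblots showed little or none in *KD1* and a strongly reduced amount in *KD2*. Depth was 25514438 to 27896032 counts per library in *KD1* and 19231428 to 28360592 in *KD2*. Replicate 3 of *KD2* stood apart from its replicates, with a chi-square per degree of freedom of 17.4 and 22.1 against replicates 1 and 2, which gave 1.74 between them, while the *KD1* pairs gave 1.37 to 1.81. The main counts were therefore also made without that library.

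Of 15253 genes tested, 2247 were called higher in *KD2* (14.7%) and 1309 lower (8.58%), 23.3% in all, where a called gene has an adjusted p below 0.05 and differs by more than 1 on the log2 scale. The libraries of the lines did not overlap for 3526 of the 3556 called genes. Genes that were not called, such as *Gata3* and *Itga6*, also lacked overlap. The share over all genes tested was not counted, so this is no mark of called genes. Without *KD2* replicate 3 the counts were 2329 and 1340, and 3384 of the called genes were called again in the same direction (95.2%). The median log2 fold change over all genes tested was 0.02. With library size alone in place of TMM scaling it was 0.14, so small differences depend on the scaling. In bulk RNA, fewer cells that carry a transcript and less of it per cell cannot be told apart, here and in every result below.

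Genes of these programmes were followed in 27 lists, and the shares called differed widely from list to list, which is a description with no test. Collagen chains (20 of 28 tested), protocadherins (14 of 18) and matrix glycoproteins (21 of 34) held the highest shares of calls in favour of *KD2*, and cornified envelope genes (18 of 22), chemokines and cytokines (20 of 35) and claudins (13 of 24) held the highest shares in favour of *KD1*. Lists count only genes that passed the filter on low counts, and the number left out, or their names, is given with the lists described. All 128 named genes were tested. Of these 53 were called higher and 58 lower in *KD2*, each without overlap between the lines. Apart from a fixed set taken whatever its values, genes were named only if called and without overlap, so neither is a result about them. Adjusted p-values of the called ones were 0.00045 or less, and p-values are given below only for genes that were not called.

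**Figure D1:**
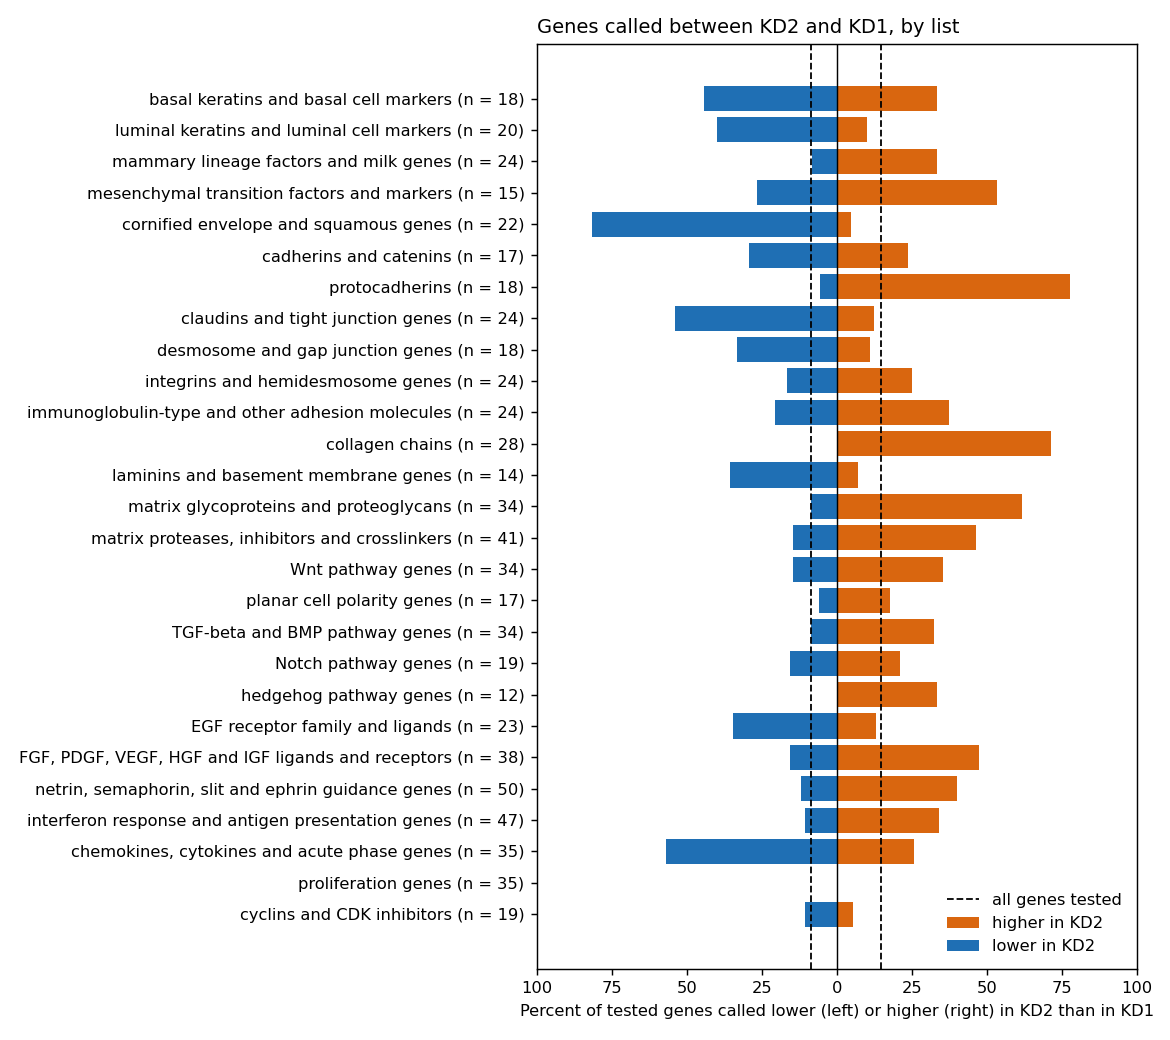
Share of the tested genes of each list (n in brackets) that were called lower (bars to the left, blue) or higher (bars to the right, orange) in *KD2* than in *KD1*, in percent. Dashed lines mark the shares over all genes tested, 8.58% lower and 14.7% higher, and the bars of cornified, claudin and cytokine genes reach far to the left while those of collagens, protocadherins and matrix glycoproteins reach far to the right.

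Both lines kept the keratins that define them as mammary epithelium. Keratin 5 (*Krt5*) was at 2142, 2196 and 2140.0 CPM in *KD1* and 1058, 967 and 1240.4 CPM in *KD2*, a log2 fold change of -0.99 ± 0.08 (adjusted p = 7.2e-08), just under the limit for a call. Keratin 14 (*Krt14*) differed by -0.78 ± 0.08 (adjusted p = 1.6e-06) on the same scale, and the luminal keratin 18 (*Krt18*) by -0.58 ± 0.08 (adjusted p = 1.2e-05). Keratin 8 (*Krt8*) went the other way, from 177, 180.1 and 174 CPM in *KD1* to 258, 245 and 301 CPM in *KD2* (0.60 ± 0.09, adjusted p = 6.5e-05). Epithelial adhesion molecule (*Epcam*) was at 687, 699 and 658 CPM in *KD1* and 404, 392 and 489 CPM in *KD2* (-0.67 ± 0.07, adjusted p = 2.2e-06). *Krt14* and *Krt8* share 28.2% and 36.0% of their 31-base windows with other genes, so their reads may have been divided. Neither these keratins nor *Epcam* differed by more than 2-fold between the lines, although the libraries of the lines did not overlap for any of them. The basal markers *Trp63* and *Acta2* did differ by more, lower and higher in *KD2*, as given below. Smooth muscle actin (*Acta2*), which basal cells of the gland carry in tissue, was low in both lines, at a mean of 0.31 CPM in *KD1* and 1.54 CPM in *KD2*.

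Among basal markers, 6 of 18 tested genes were higher and 8 lower in *KD2*, with a median log2 fold change of -0.88. The lower ones were *Krt6a*, *Krt6b*, *Krt16*, *Krt17*, *Igfbp3*, *Procr*, *Cdh3* and *Trp63*. Keratin 6a (*Krt6a*, a keratin of wounded and hyperproliferative epithelium) was at 408, 404 and 403 CPM in *KD1* and 7.96, 7.62 and 9.64 CPM in *KD2* (-5.60 ± 0.13), and *Krt6b* at 34, 35 and 35.9 and 1.37, 1.33 and 1.72 CPM (-4.58 ± 0.15). These paralogs share 62.0% and 57.0% of their 31-base windows with other genes, so reads may have been split between them, but both were low in every *KD2* library. *Trp63*, which encodes p63, the factor that keeps the basal state, was at 319, 337 and 321 CPM in *KD1* and 105, 105 and 91.2 CPM in *KD2* (-1.69 ± 0.07). The higher ones were the contractile genes of myoepithelium *Acta2*, *Cnn1*, *Myh11* and *Mylk*, with *Krt15* and *Oxtr*. Myosin light chain kinase (*Mylk*) was at 0.0738, 0.118 and 0.0403 CPM in *KD1*, near or below the floor of 3 counts a library, and at 8.89, 8.69 and 10.0 CPM in *KD2* (6.79 ± 0.28). The oxytocin receptor (*Oxtr*), through which myoepithelium contracts to eject milk, was at 0.0738, 0.118 and 0.0403 and 4.04, 3.83 and 4.38 CPM (5.62 ± 0.28). *Lgr5* was not tested.

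Of 20 luminal markers tested, 8 were lower in *KD2* and 2 higher, with a median of -0.64, and *Krt19*, *Kit*, *Cited1*, *Pgr* and *Spdef* were not tested. *Ehf*, an ETS factor of simple and glandular epithelium, was at 60.0, 57.1 and 64.3 CPM in *KD1* and 2.26, 1.83 and 1.67 CPM in *KD2* (-4.97 ± 0.11). The prolactin receptor (*Prlr*), which starts the signal for milk synthesis, was at 38.8, 39.8 and 39.7 CPM and 9.62, 8.12 and 5.56 CPM (-2.33 ± 0.13). *Aldh1a3*, a retinaldehyde dehydrogenase of luminal progenitors, was at 1.29, 0.904 and 1.41 and 0.121, 0.133 and 0.197 CPM (-2.99 ± 0.39). *Areg*, *Ovol1*, *Elf3*, *Cldn3* and *Esrp2* were lower too. The exceptions were *Itgb3* and *Ly6a*, surface markers of luminal progenitors in the mouse, with *Ly6a* at 0.812, 1.18 and 1.09 CPM in *KD1* and 23.7, 22.4 and 27.3 CPM in *KD2* (4.57 ± 0.14), although it shares 31.9% of its windows with other *Ly6* genes.

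Of 24 tested mammary lineage factors and milk genes, 8 were higher and 2 lower in *KD2*, with a median of 0.37. *Stat5a*, the main factor of milk gene transcription, was at 14.5, 15.7 and 14.3 CPM in *KD1* and 28.6, 28.2 and 33.3 CPM in *KD2* (1.01 ± 0.09), and its log2 fold change was 0.94 without *KD2* replicate 3, below the limit. *Elf5*, an alveolar factor, was at 0.812, 0.472 and 0.242 and 1.41, 1.96 and 1.77 CPM (1.73 ± 0.32), so both factors were higher in *KD2*, *Elf5* at a low level. *WT* means were 15.8 CPM for *Stat5a*, close to *KD1*, and 0.236 CPM for *Elf5*. The Notch target *Hey1* was at 0.406, 0.55 and 0.282 CPM in *KD1* and 8.69, 7.22 and 8.12 CPM in *KD2* (4.25 ± 0.20), against a mean of 19.6 CPM in *WT*. *Foxa1*, a factor of hormone-sensing luminal cells, went down from 3.06, 3.26 and 3.07 to 0.202, 0.0666 and 0.0984 CPM (-4.65 ± 0.35). Lactoferrin (*Ltf*) had 1.26, 0.944 and 1.69 CPM in *KD1* and 1 count in all of *KD2*, a ratio of summed counts of 97.2 with a 95% counting interval of 17.0 to 3876. *Gata3*, a factor of luminal fate, was at 98.3, 103 and 103 and 55.9, 53.3 and 56.4 CPM (-0.88 ± 0.07, adjusted p = 5.4e-08). The caseins, *Wap*, *Lalba*, *Glycam1* and *Sox10* were not tested, and *Csn2* had 2 counts summed over all 9 libraries.

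Of the mesenchymal list, vimentin, N-cadherin and fibronectin were far higher in *KD2*, and 8 of 15 tested genes were higher and 4 lower in *KD2*, with a median of 1.45. Vimentin (*Vim*, chromosome 2, 13573927 to 13582826), the intermediate filament of mesenchymal cells, was at 18.8, 18.3 and 17.7 CPM in *KD1* and 1051, 1019.9 and 1204 CPM in *KD2* (5.90 ± 0.14, 59.7-fold). N-cadherin (*Cdh2*, chromosome 18) was at 0.295, 0.197 and 0.403 CPM and 166, 175 and 158 CPM (9.10 ± 0.12, 549-fold). Fibronectin (*Fn1*, chromosome 1, 71585520 to 71653200) was at 456, 453 and 462 CPM and 8694, 8293 and 9303 CPM (4.26 ± 0.07, 19.2-fold). For each of these genes the *KD2* libraries lay far above the *KD1* libraries, with no overlap. *WT* lay between the lines for all of them, at means of 145, 24.1 and 3166 CPM. The repressor *Zeb1* was at 1.18, 1.30 and 1.45 CPM in *KD1* and 30.3, 31.8 and 26.1 CPM in *KD2* (4.49 ± 0.12), and *Zeb2*, *Snai1*, *Tcf4* and *S100a4* completed the higher genes. The mesenchymal factor *Prrx1* was the reverse, at 11.4, 12.5 and 10.6 CPM in *KD1* and 0.404, 0.732 and 0.246 CPM in *KD2* (-4.54 ± 0.24), as was *Snai3*, at 13, 13.4 and 13.9 and 1.21, 1.76 and 2.16 CPM (-2.98 ± 0.18). *Hmga2* and *Fosl1* were lower as well, and *Snai2*, a SNAI factor that basal cells use, differed by -0.61 ± 0.08 (adjusted p = 1.7e-05). The list held genes of both directions, and *Twist2*, *Foxc2*, *Fap* and *Thy1* were not tested.

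Genes of the cornified envelope were on the side of *KD1*, with 18 of 22 tested genes lower in *KD2* and 1 higher. Their median log2 fold change was -6.09, or -3.79 when genes without a count in one line are set at the bound that 3 counts a library allow. *Sprr2h* was at 82.8, 79.6 and 77.4 CPM in *KD1* and 0.0808, 0.2 and 0.148 CPM in *KD2* (-9.04 ± 0.14), and *Sprr2g* at 74.1, 77.4 and 75.4 and 0.162, 0.0666 and 0.197 CPM (-9.09 ± 0.15). These small proline-rich proteins are cross-linked into the envelope of keratinocytes. *Sprr2d* was at 4.91, 5.66 and 6.57 CPM in *KD1* and had no count in *KD2*, at least 46.5-fold lower, and *Sprr2a1*, which shares 96.9% of its windows with *Sprr2a2* and *Sprr2a3* and is uncertain as a single gene, was at least 24.9-fold lower. Involucrin (*Ivl*), a scaffold of the envelope, and transglutaminase 1 (*Tgm1*), which cross-links it, were at means of 25.4 and 32.8 CPM in *KD1* and 0.129 and 0.543 CPM in *KD2*. Keratin 10 (*Krt10*) was the exception, at 4.10, 3.66 and 3.39 CPM in *KD1* and 5.94, 7.49 and 9.54 CPM in *KD2* (1.03 ± 0.16). It fell below the fold limit without *KD2* replicate 3, at 0.86. Late genes such as loricrin (*Lor*) and filaggrin (*Flg*) were among 15 that were not tested.

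The AP-1 motif TGANTCA, the site of FOS and JUN factors and a known element of cornified envelope promoters, was searched on both strands from 250 bases before to 50 bases after RefSeq starts (GRCm38.p6), with the motif chosen after the gene values were known. It occurred in 10 of the 17 cornified genes that were lower in *KD2* and have a promoter in the table, and in 725 of 10584 genes tested with one (6.85%). It was in 14.2% of all genes lower and 9.10% of all genes higher in *KD2*. A match is only a match of letters, and the *Sprr2* genes are neighbours on chromosome 3 with similar sequence, so their matches are not independent. Shown are the 250 bases before the start of *Sprr2h*, among the largest changes, and *Sprr2d*, which had no count in *KD2*, from chr3:92385435-92385684 and chr3:92338890-92339139 on the plus strand, with the motif in capitals.

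Sprr2h: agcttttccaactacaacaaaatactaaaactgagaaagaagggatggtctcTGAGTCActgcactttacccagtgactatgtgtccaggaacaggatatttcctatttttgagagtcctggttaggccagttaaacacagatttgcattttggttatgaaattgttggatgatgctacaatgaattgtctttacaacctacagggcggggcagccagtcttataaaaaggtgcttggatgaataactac
Sprr2d: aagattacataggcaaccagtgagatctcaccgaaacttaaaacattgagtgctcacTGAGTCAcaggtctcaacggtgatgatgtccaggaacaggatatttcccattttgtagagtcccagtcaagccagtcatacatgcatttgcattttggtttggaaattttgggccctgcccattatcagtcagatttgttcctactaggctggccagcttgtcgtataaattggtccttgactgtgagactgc

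**Figure D2:**
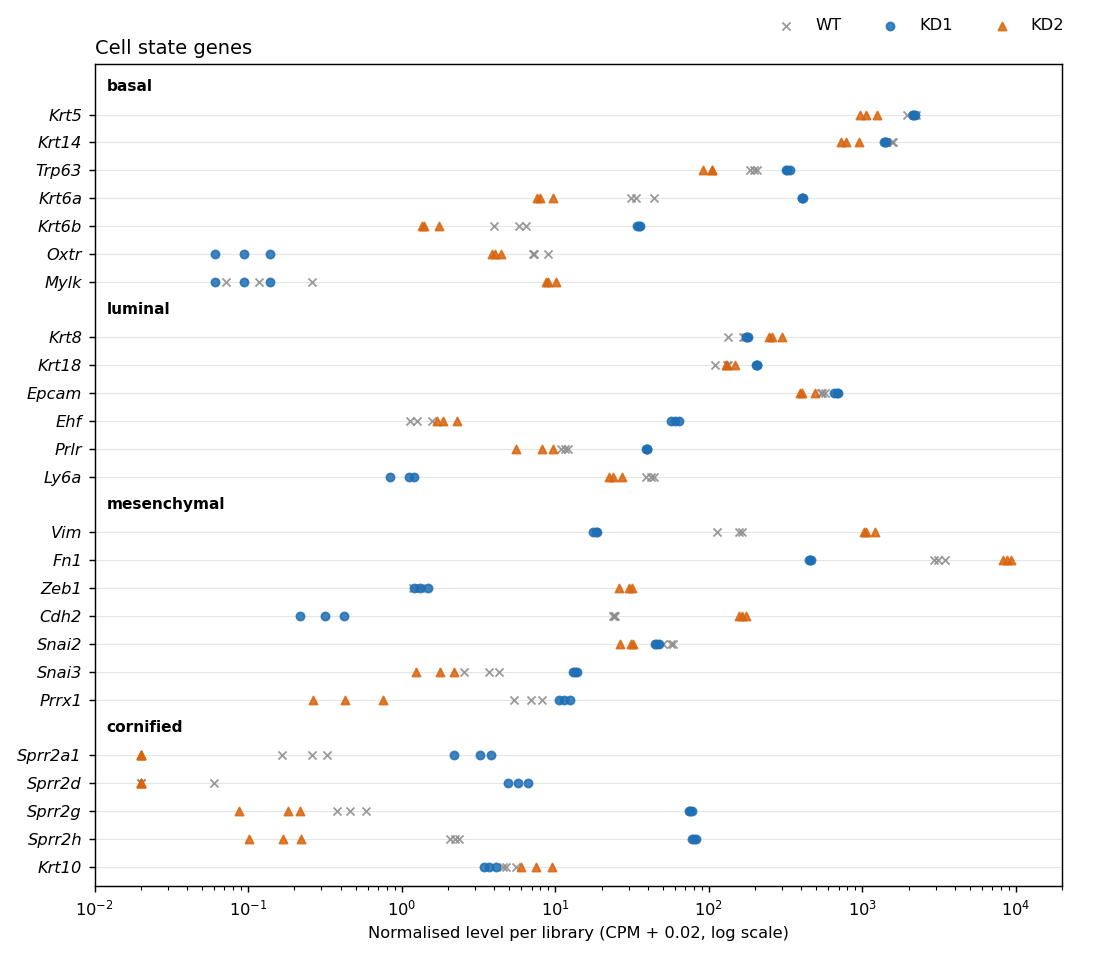
Normalised level of named cell state genes in each library, as CPM + 0.02 on a log axis, with *WT* as grey crosses, *KD1* as blue circles and *KD2* as orange triangles (3 libraries each). Keratins 5, 14, 8 and 18 lie close together in the lines, while *Vim*, *Fn1*, *Zeb1* and *Cdh2* lie far to the right in *KD2* and *Krt6a*, *Ehf*, *Prrx1* and the *Sprr2* genes far to the right in *KD1*.

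Among adhesion genes, 38 of 125 tested were higher and 34 lower in *KD2*, and the lists of junction kinds differed in their balance. Among cadherins and catenins, 4 of 17 tested genes were higher and 5 lower, and 11 were not tested. P-cadherin (*Cdh3*), the cadherin of basal cells, was at 109.6, 113 and 112 CPM in *KD1* and 13, 13.2 and 15.1 CPM in *KD2* (-3.03 ± 0.07). E-cadherin (*Cdh1*) was at 895, 906 and 888 CPM and 433, 417 and 433 CPM (-1.07 ± 0.05, 2.09-fold). On the length-scaled TPM scale, *Cdh1* was at 782 and *Cdh2* at 0.148 in *KD1*, and *Cdh1* was at 417 and *Cdh2* at 92.0 in *KD2*, so *KD2* carried both cadherins with E-cadherin still the more abundant. Nectin 1 (*Nectin1*), which starts adherens junctions, was at 131, 129 and 122 and 34, 31.2 and 36.9 CPM (-1.91 ± 0.08), with *Nectin4* and plakoglobin (*Jup*) lower too. M-cadherin (*Cdh15*), known from muscle cells, was at 0.221, 0.118 and 0.161 CPM in *KD1* and 32.1, 31.4 and 42.1 CPM in *KD2* (7.66 ± 0.24), and *Cdh10* and *Nectin3* were higher. For beta-catenin (*Ctnnb1*) the libraries overlapped, at 743, 767 and 738 CPM in *KD1* and 785, 743 and 791 CPM in *KD2*, with a log2 fold change of 0.05 ± 0.06 (adjusted p = 0.52), which turned to -0.21 when centred on its chromosome's median.

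Claudins and tight junction genes were lower in *KD2* in 13 of 24 tested cases and higher in 3, with a median of -1.07. Claudin 4 (*Cldn4*, chromosome 5, 134945119 to 134946934) was at 638, 633 and 628 CPM in *KD1* and 17.8, 17.3 and 22.1 CPM in *KD2* (-5.06 ± 0.09, 33.3-fold). Claudin 3 (*Cldn3*) was at 147, 151 and 144 and 45.3, 44.9 and 62 CPM (-1.55 ± 0.10), and *Jam2* at 8.20, 7.59 and 8.11 and 0.485, 0.499 and 0.443 CPM (-4.04 ± 0.17). *WT* was at a mean of 22 CPM for *Cldn4*, close to *KD2*, so that the *KD1* level stood apart from both. The other lower genes were *Cldn1*, *Cldn7*, *Cldn23*, *Ocln*, *Marveld2*, *Marveld3*, *Tjp3*, *Pard6b*, *Crb3* and *Cgn*. *Cldn9*, at 0.0369, 0.0393 and 0.0807 and 1.70, 1.36 and 2.31 CPM (4.95 ± 0.41), *Cldn20* (1.83 ± 0.33) and *Cgnl1* were higher. The scaffold ZO-1 (*Tjp1*) overlapped between the lines, at 256, 259 and 266 CPM in *KD1* and 259.7, 261 and 211 CPM in *KD2* (-0.09 ± 0.08, adjusted p = 0.31). The sign of that value depends on the scaling, at 0.03 with library size alone. Another 10 claudins were not tested.

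ZEB and SNAI repressors are known to bind E-boxes of the form CACCTG in promoters of epithelial genes, and the same search was made for that motif. It occurred in 8 of the 10 claudin and tight junction genes that were lower in *KD2* and have a promoter in the table, and in 2216 of 10584 genes tested with one (20.9%). The shares were 28.5% of all genes lower and 22.9% of all genes higher in *KD2*, and 1 of 16 collagen genes that were higher. Of genes lower in *KD2* with a promoter in the RefSeq table it was in 0 of 2 cadherin and catenin genes and in 4 of 17 cornified genes (23.5%). It was also in 4 of 4 luminal, 2 of 3 desmosome and gap junction and 3 of 12 cytokine genes that were lower. Of higher genes it was in 1 of 2 desmosome and gap junction and 2 of 7 cytokine genes. Here too a match is only a match of letters, and *Cldn3* and *Cldn4* are neighbours on chromosome 5. *Krt8*, which was not lower, also holds a match, and no promoter of *Cdh1* was read. Shown are the 250 bases before the start of *Cldn4* (chr5:134946935-134947184, minus strand), whose level differed most in the list, and of *Epcam* (chr17:87635729-87635978, plus strand), whose level differed by less than 2-fold with more matches in the window shown, with CACCTG or its complement in capitals. The *Cldn4* stretch also holds the AP-1 motif as TGACTCA, not marked here. That motif was in 1 of the 10 lower claudin and tight junction genes with a promoter.

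Cldn4: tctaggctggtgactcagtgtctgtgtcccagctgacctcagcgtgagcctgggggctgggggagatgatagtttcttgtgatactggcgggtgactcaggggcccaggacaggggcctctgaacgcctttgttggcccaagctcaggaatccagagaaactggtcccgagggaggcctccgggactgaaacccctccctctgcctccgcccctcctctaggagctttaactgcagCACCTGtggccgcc
Epcam: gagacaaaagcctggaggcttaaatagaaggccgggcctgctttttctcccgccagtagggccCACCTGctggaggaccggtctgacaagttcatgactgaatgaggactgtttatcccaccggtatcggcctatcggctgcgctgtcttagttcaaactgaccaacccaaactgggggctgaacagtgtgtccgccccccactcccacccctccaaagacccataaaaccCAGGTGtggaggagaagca

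Desmosome and gap junction genes were lower in *KD2* in 6 of 18 tested cases and higher in 2, and 6 were not tested. Connexin 26 (*Gjb2*), a gap junction channel of stratified epithelium, was at 66.4, 67.4 and 66.3 CPM in *KD1* and 0.445, 0.533 and 0.541 CPM in *KD2* (-7.03 ± 0.15). It lies on chromosome 14, whose genes had a median of -0.48. Desmocollin 2 (*Dsc2*) was at 172, 174 and 173 CPM and 26.4, 26.5 and 21 CPM (-2.81 ± 0.08), and desmoplakin (*Dsp*), *Pkp3*, *Dsg3* and *Gjb5* were lower as well. The plakophilin *Pkp4*, which sits at adherens junctions, was at 151, 150.0 and 152 and 319.5, 319.6 and 323 CPM (1.09 ± 0.05) and was higher with *Gja4*. *Dsp* stayed abundant in both lines, at a mean of 1122 CPM in *KD1* and 367 CPM in *KD2*.

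Protocadherins, homophilic adhesion molecules best known from neurons, were higher in *KD2* in 14 of 18 tested cases, with a median of 2.32. Of these, 11 were *Pcdhb* genes, which lie side by side on chromosome 18 and share sequence. *Pcdhb14* was at 0.111, 0.157 and 0.202 CPM in *KD1* and 3.03, 2.86 and 2.07 CPM in *KD2* (4.06 ± 0.36), and *Pcdhb18* at 0.295, 0.197 and 0.403 and 3.84, 4.36 and 3.30 CPM (3.67 ± 0.24). The levels in *KD2* were low, and 10 further *Pcdhb* genes and 5 other protocadherins were not tested. *Pcdh7* was the sole one lower, at 176, 178 and 173 CPM in *KD1* and 16.9, 19.1 and 16.8 CPM in *KD2* (-3.31 ± 0.07). An antisense gene covers 21.1% of its exon bases.

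Of 24 tested immunoglobulin-type and other adhesion molecules, 9 were higher and 5 lower in *KD2*, and 17 were not tested. Neural cell adhesion molecule (*Ncam1*) was at 3.69, 4.01 and 4.84 CPM in *KD1* and 101, 97.6 and 98.3 CPM in *KD2* (4.57 ± 0.11). The giant cadherins went opposite ways, with *Fat4* at 0.0369, 0.157 and 0.0807 and 18.7, 17.1 and 17 CPM (7.52 ± 0.24) and *Fat2*, the form of stratified epithelium, at 187, 182 and 189 and 5.82, 5.89 and 4.57 CPM (-5.09 ± 0.12). *Chl1*, a neural adhesion molecule, was lower, at 15.2, 15.3 and 15.1 CPM in *KD1* and 0.525, 0.566 and 0.443 CPM in *KD2* (-4.86 ± 0.14). *Mcam*, *Ncam2*, *Vcam1*, *Icam1*, *Icam5*, *Sdc2* and *Sdc3* were higher too, and *Cd44*, *Sdc1* and *Bcam* lower.

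Integrins and hemidesmosome genes were higher in 6 and lower in 4 of 24 tested cases, with a median of 0.02 and 4 not tested. These shares were 25% and 16.7%, against 14.7% and 8.58% of all genes tested, too few genes for a result about the list. The collagen receptor subunit alpha 2 (*Itga2*, chromosome 13, 114833081 to 114932100) was at 241, 247 and 243 CPM in *KD1* and 0.728, 0.433 and 0.836 CPM in *KD2* (-8.56 ± 0.16, 377-fold), against a median of -0.61 over the genes of chromosome 13. Collagen XVII (*Col17a1*), the transmembrane collagen of the hemidesmosome, was at 1216, 1231 and 1191 CPM and 185, 170.2 and 201 CPM (-2.71 ± 0.08), and *Itga3* and *Itgb6* were lower. Integrin beta 3 (*Itgb3*) was at 4.36, 4.76 and 3.95 and 58.2, 58.9 and 62.8 CPM (3.78 ± 0.15) and alpha 8 (*Itga8*), a fibronectin receptor subunit, at 0.48, 0.59 and 0.323 and 5.21, 5.96 and 4.67 CPM (3.50 ± 0.26). The other higher subunits were *Itgb8*, *Itga10*, *Itga11* and *Itgae*. The subunits that anchor basal cells differed by less than 2-fold, with *Itga6* at -0.99 ± 0.09 (adjusted p = 3.0e-07), *Itgb4* at -0.70 ± 0.07 (adjusted p = 4.0e-07) and *Itgb1* at -0.62 ± 0.05 (adjusted p = 2.1e-07).

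Matrix genes were mostly higher in *KD2*, with 61 of 117 tested genes higher and 14 lower. Of 28 tested chains of the collagen list, 20 were higher and 0 lower, with a median of 3.10. DESeq2 also called 0 of them lower, and 0 were lower at an unadjusted p under 0.05. The list leaves out *Col17a1*, a collagen chain called lower in *KD2* and given above with the hemidesmosome genes, so 0 lower holds for the list alone. In *KD2* the fibrillar chains *Col1a1*, *Col1a2*, *Col3a1*, *Col5a1*, *Col5a2*, *Col5a3*, *Col11a1*, *Col11a2* and *Col27a1* were higher, together with the microfibril chains *Col6a1*, *Col6a2* and *Col6a3*, the fibril-associated chains *Col9a1*, *Col9a3*, *Col12a1*, *Col16a1* and *Col20a1*, and *Col8a2*, *Col25a1* and *Col28a1*. *Col9a1* was at 0, 0.0393 and 0 CPM in *KD1*, 1 count in all, and 12.9, 12.2 and 12.5 CPM in *KD2*, a ratio of summed counts of 965 with a 95% counting interval of 173 to 38165. *Col1a2* had no count in *KD1* and 2.87, 3.26 and 3.15 CPM in *KD2*, at least 26.5-fold higher. *Col1a1* was at 0.517, 0.511 and 0.686 CPM in *KD1* and 4.28, 3.83 and 5.02 CPM in *KD2* (2.92 ± 0.24). Type I and type III collagen, the main collagens of stroma, were thus low even in *KD2*. The abundant chains were others, named here after their values were seen. *Col11a1* had a mean of 6.86 CPM in *KD1* and 627 CPM in *KD2* (6.52 ± 0.11), *Col6a1* of 70.5 and 829.6 CPM (3.56 ± 0.10) and *Col12a1* of 6.77 and 363 CPM (5.75 ± 0.09). Basement membrane collagen IV differed less, with *Col4a1* at 267, 266 and 267 CPM in *KD1* and 401, 396 and 449 CPM in *KD2* (0.64 ± 0.07, adjusted p = 1.0e-06). A further 10 chains were not tested.

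Laminins and basement membrane genes showed the opposite balance among calls only, with 1 of 14 tested genes higher and 5 lower in *KD2*. Their median was 0.19, and at an adjusted p under 0.05 without the fold limit 7 were higher and 6 lower, so the list as a whole did not lean to *KD1*. Among the lower ones were laminin subunits of the epithelial basement membrane. *Lama3* was at 708, 729 and 717 CPM in *KD1* and 28.1, 28.2 and 26.9 CPM in *KD2* (-4.69 ± 0.06) and *Lamb3* at 439, 445 and 431 and 133, 129 and 145 CPM (-1.69 ± 0.07). *Smoc2* and *Fras1* were lower as well. Perlecan (*Hspg2*), a heparan sulphate proteoglycan, was higher, at 269, 259 and 265 CPM in *KD1* and 692, 666 and 779.7 CPM in *KD2* (1.43 ± 0.08). The subunits of other laminins, such as *Lama5*, *Lamb1* and *Lamc1*, were not called, and 8 genes, among them both nidogens, were not tested.

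Of 34 tested matrix glycoproteins and proteoglycans, 21 were higher and 3 lower in *KD2*, with a median of 1.61. The matricellular protein *Ccn5* was at 0.111, 0.0393 and 0.121 CPM in *KD1* and 44.1, 43.5 and 53.6 CPM in *KD2* (8.94 ± 0.21), against a mean of 0.7 CPM in *WT*. Aggrecan (*Acan*), the large proteoglycan of cartilage, was at 0.443, 0.55 and 0.282 CPM and 70.7, 72.5 and 69.8 CPM (7.36 ± 0.19), and *WT* was above both at a mean of 162 CPM. The lower genes were *Tgfbi* (chromosome 13), at 9.64, 10.7 and 10.1 and 0.202, 0.133 and 0.394 CPM (-5.45 ± 0.29), the hyaluronan synthase *Has2*, and tenascin C (*Tnc*), a matrix protein of wounds, at 3102, 3088 and 3082 and 1113, 1117 and 1149 CPM (-1.46 ± 0.05). *Fbln5*, *Ltbp1*, *Postn*, *Thbs1*, *Ccn2* and *Fbn1* were among the higher ones. Decorin (*Dcn*), lumican (*Lum*), elastin (*Eln*) and 24 others were not tested.

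Proteases, inhibitors and crosslinkers of the matrix were higher in 19 and lower in 6 of 41 tested cases, with a median of 1.00 and 14 not tested. Urokinase (*Plau*, chromosome 14), which activates plasminogen, was lower in *KD2*, at 327, 339 and 328 CPM in *KD1* and 20.6, 24.8 and 24.1 CPM in *KD2* (-3.84 ± 0.08), and its receptor *Plaur* was lower as well. The urokinase inhibitor *Serpinb2* was at 83.7, 89.1 and 80.1 and 0.728, 0.466 and 0.344 CPM (-7.33 ± 0.14). *Mmp9*, *Mmp10* and *Timp1* were the other lower genes. The lysyl oxidase *Loxl3*, which crosslinks collagen, was at 14.6, 14.6 and 14.4 CPM in *KD1* and 196, 194 and 239.6 CPM in *KD2* (3.85 ± 0.12), with *Lox*, *Loxl1*, *Loxl4*, *Plod1* and *Plod2* higher in the same direction. *Adamts15* was at 0.111, 0 and 0.0403 and 0.97, 1.10 and 1.62 CPM (4.42 ± 0.58), and the procollagen proteases *Adamts2* and *Adamts14* were higher too.

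**Figure D3:**
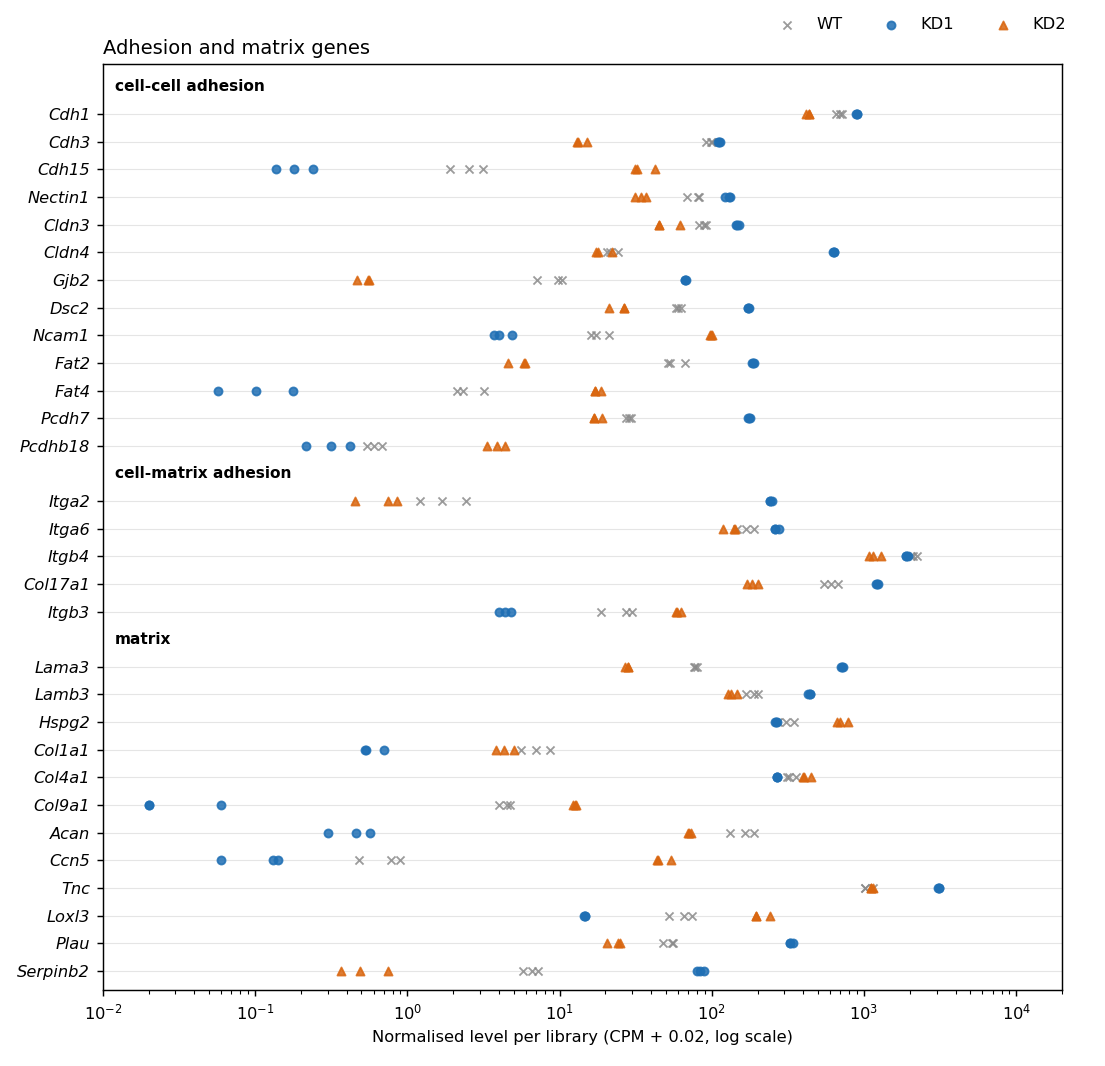
Normalised level of named adhesion and matrix genes in each library, as CPM + 0.02 on a log axis (grey crosses *WT*, blue circles *KD1*, orange triangles *KD2*, 3 libraries each). *Cldn4*, *Gjb2*, *Fat2*, *Itga2*, *Lama3*, *Plau* and *Serpinb2* lie to the right in *KD1*, *Cdh15*, *Fat4*, *Ncam1*, *Col9a1*, *Acan* and *Ccn5* to the right in *KD2*, and *Itga6*, *Itgb4* and *Col4a1* differ little.

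Of 309 tested signalling genes, 100 were higher and 57 lower in *KD2*. Among planar cell polarity genes, the pathway of *Vangl2*, 3 of 17 were higher and 1 lower with a median of -0.04 and 3 not tested, which is near the shares over all genes and no result about the list. *Vangl1*, its paralog, was at 83.6, 79.8 and 83.9 CPM in *KD1* and 52.8, 50.3 and 52.2 CPM in *KD2* (-0.67 ± 0.06, adjusted p = 1.4e-07). The cytoplasmic polarity protein *Prickle2* was lower, at 18.7, 15.8 and 15.8 and 2.83, 2.06 and 2.75 CPM (-2.73 ± 0.14), while *Prickle3*, on the X chromosome, was higher, at 1.11, 1.57 and 0.928 and 5.13, 4.79 and 6.25 CPM (2.15 ± 0.18). *WT* was near *KD2* for both, at means of 2.71 and 4.89 CPM. *Dact1* and *Daam2* were the other higher genes, *Dact1* with a level of at most 1.46 CPM and an antisense gene over 34.9% of its exon bases.

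Of 34 tested Wnt pathway genes, 12 were higher and 5 lower in *KD2*. The ligands *Wnt7a*, at 1.99, 2.16 and 1.65 CPM in *KD1* and 0.0404, 0.0666 and 0.0492 CPM in *KD2* (-5.06 ± 0.36), and *Wnt4*, at 4.13, 3.85 and 4.60 and 1.62, 1.43 and 2.41 CPM (-1.23 ± 0.18), were lower. *Lgr6*, a receptor of R-spondins, was at 9.01, 8.73 and 8.19 and 0.364, 0.732 and 0.295 CPM (-4.13 ± 0.23), and the R-spondin *Rspo3* was the reverse, with 2 counts in all of *KD1* and 1.74, 1.83 and 2.21 CPM in *KD2*. The receptor *Ror1* was at 2.36, 2.32 and 2.34 CPM in *KD1* and 19.2, 18.1 and 14.3 CPM in *KD2* (2.88 ± 0.13), above the *WT* mean of 0.678 CPM. The ligands *Wnt6*, *Wnt9a*, *Wnt10a* and *Wnt11* and the TCF factors *Tcf7*, *Tcf7l1* and *Tcf7l2* were higher, and *Axin2* and *Lef1*, common readouts of the pathway, were among 25 genes not tested.

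TGF-beta and BMP pathway genes were higher in 11 and lower in 3 of 34 tested cases, and 13 were not tested. The ligands divided, with *Tgfb2* at 7.68, 7.86 and 7.58 CPM in *KD1* and 17.8, 16.4 and 14.9 CPM in *KD2* (1.09 ± 0.10) and *Tgfb3* and *Inhbb* also higher, and with *Tgfb1* and *Inhba* lower. *Inhba*, the activin A subunit, was at 639, 651 and 619 and 100.2, 101 and 73.7 CPM (-2.79 ± 0.11), and follistatin (*Fst*), which binds activin, at 49.2, 47.5 and 48.6 and 13.3, 12.4 and 9.64 CPM (-2.03 ± 0.10), both on chromosome 13. The co-receptor betaglycan (*Tgfbr3*) was at 0.221, 0.118 and 0.242 CPM in *KD1* and 20.8, 19.1 and 16.4 CPM in *KD2* (6.56 ± 0.29). Follistatin-like 1 (*Fstl1*), a secreted glycoprotein, was at 1.18, 1.14 and 1.13 and 54.2, 54.3 and 56.5 CPM (5.57 ± 0.10), and the BMP antagonists *Nog* and *Chrd* were higher with *Bambi*, *Eng*, *Smad3* and *Smad6*.

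Notch genes were called higher in 4 and lower in 3 of 19 tested cases, and 9 were not tested. These shares were 21.1% and 15.8%, against 14.7% and 8.58% of all genes tested, too few genes for a result about the list. The receptor *Notch1* was at 68.8, 63 and 68.9 CPM in *KD1* and 242, 232 and 262 CPM in *KD2* (1.87 ± 0.07), and its target *Hey1* was higher, as given above. The ligand *Dll1*, at 13, 11.4 and 12.5 and 4.16, 3.60 and 3.89 CPM (-1.67 ± 0.11), and the target *Nrarp*, at 4.98, 4.80 and 4.11 and 2.06, 1.76 and 2.41 CPM (-1.17 ± 0.16), were lower, but antisense genes cover 20.6% and 79.4% of their exon bases. Targets thus went both ways. Of 12 tested hedgehog genes, 4 were higher and 0 lower, by DESeq2 as well, with 1 lower at an unadjusted p under 0.05. The effector *Gli1* was at 2.84, 2.63 and 2.18 CPM in *KD1* and 11.2, 9.75 and 12.6 CPM in *KD2* (2.12 ± 0.13), and the co-receptor *Gas1* at 1.70, 2.36 and 1.98 and 24.3, 24 and 25.3 CPM (3.61 ± 0.11), on chromosome 13, against that chromosome's median. *Cdon* and *Hhip* were the others, and *WT* was above both lines for *Gli1*, *Gas1* and *Hhip*. The hedgehog ligands were among 5 genes not tested.

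Of 23 genes of the EGF receptor family, its ligands and feedback genes, 8 were lower and 3 higher in *KD2*, with a median of -0.51 and 2 not tested. The receptor *Egfr* was at 84.3, 82.7 and 88 CPM in *KD1* and 39.6, 41.4 and 30.2 CPM in *KD2* (-1.19 ± 0.09). The ligands amphiregulin (*Areg*), at 79.8, 79.2 and 80.6 and 12.4, 13.5 and 13.2 CPM (-2.62 ± 0.06), and neuregulin 1 (*Nrg1*), at 283, 291 and 291 and 33.7, 32.4 and 29.1 CPM (-3.18 ± 0.07), were lower with *Hbegf*, *Tgfa* and *Ereg*, and so were the feedback phosphatases *Dusp5* and *Dusp6*. *Egf* itself, at 1.33, 0.904 and 0.928 and 2.95, 2.73 and 2.51 CPM (1.37 ± 0.27), *Nrg2* and *Dusp4* were higher, and *Dusp4* was at 26.4, 24.8 and 25.3 and 57.7, 55.3 and 62.8 CPM (1.20 ± 0.07). The culture medium held EGF for both lines. *Erbb2* overlapped between the lines, at 117, 114 and 114 CPM in *KD1* and 98.6, 95.5 and 117 CPM in *KD2* (-0.15 ± 0.08, adjusted p = 0.12), and without *KD2* replicate 3 it was at -0.24 with an adjusted p of 0.0018.

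Ligands and receptors of the FGF, PDGF, VEGF, HGF and IGF families were higher in 18 and lower in 6 of 38 tested cases, and 10 were not tested. The PDGF receptor beta (*Pdgfrb*, chromosome 18), known from fibroblasts and pericytes, was at 0.148, 0.197 and 0.0807 CPM in *KD1* and 63.5, 64.2 and 72.6 CPM in *KD2* (8.82 ± 0.17, 452-fold), and *WT* at a mean of 0.823 CPM. Its libraries in *KD2* stood far above those of *KD1* and *WT* alike. *Pdgfc*, *Nrp1*, *Fgfr2*, *Fgf7*, *Hgf* and *Csf1* were also higher. *Igfbp2* had no count in *KD1* and was at 2.55, 2.50 and 3.35 CPM in *KD2*, at least 24.0-fold higher. On the other side, *Fgfbp1*, which releases FGFs from the matrix, was at 253, 262 and 259.9 CPM in *KD1* and 11.8, 10.8 and 13.9 CPM in *KD2* (-4.42 ± 0.18), and *Vegfd*, on the X chromosome, at 14.7, 14.4 and 12.3 and 1.05, 1.36 and 1.18 CPM (-3.51 ± 0.15). *Igfbp3*, *Igf2r*, *Fgfr3* and *Fgf21* were lower as well.

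Guidance genes, which steer axons and also shape mammary ducts, were higher in 20 and lower in 6 of 50 tested cases, and 18 were not tested. The secreted semaphorin *Sema3d* was at 5.43, 6.57 and 5.89 CPM in *KD1* and 575, 591 and 409 CPM in *KD2* (6.46 ± 0.15, 88.1-fold), and *WT* lay between at a mean of 316 CPM. The netrin receptor *Unc5c* had 0, 0.0393 and 0.0807 CPM in *KD1* and 7.11, 6.19 and 4.23 CPM in *KD2*, a ratio of summed counts of 154 with a 95% counting interval of 52.2 to 748. *Sema3a*, *Sema3b*, *Sema3g* and *Ntn1* were higher too. The transmembrane semaphorin *Sema5a* was lower, at 104, 107 and 106 and 11.8, 11.8 and 8.36 CPM (-3.30 ± 0.10), as was the semaphorin receptor *Plxna2*, at 7.46, 5.90 and 6.74 and 0.0808, 0.0999 and 0.0492 CPM (-6.30 ± 0.27), with *Epha2*, *Efnb1*, *Ephb1* and *Sema4a*.

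Chemokines, cytokines and acute phase genes were lower in *KD2* in 20 of 35 tested cases and higher in 9, with a median of -1.48 and 10 not tested. Interleukin 1 alpha (*Il1a*, chromosome 2, 129299610 to 129309972), an alarm cytokine of epithelium, was at 1029.6, 1054 and 1009.9 CPM in *KD1* and 4.12, 4.83 and 4.43 CPM in *KD2* (-7.85 ± 0.15, 230-fold). G-CSF (*Csf3*), the growth factor of neutrophils, was at 575, 590.3 and 548 CPM and 1.98, 2.00 and 3.44 CPM (-7.89 ± 0.17, 237-fold). In *WT* they were at means of 13 and 2.51 CPM, far below *KD1*. The neutrophil chemokines *Cxcl1*, *Cxcl2*, *Cxcl3* and *Cxcl5* were lower in *KD2*, with *Lif*, *Il6*, *Il1b*, *Il23a*, *Il33*, *Tslp*, *Nos2* and *Ptgs2*. The reverse held for *Cxcl12*, a chemokine of stromal cells, at 4.61, 4.36 and 3.79 CPM in *KD1* and 149, 156 and 146 CPM in *KD2* (5.14 ± 0.08), and for the pentraxin *Ptx3*, a soluble pattern receptor, with 1 count in all of *KD1* and 27.8, 29.5 and 30.0 CPM in *KD2*. *Ptx3* had a ratio of summed counts of 2247 with a 95% counting interval of 403 to 88809. *Ccl2*, *Ccl7*, *Ccl20*, *Il11*, *Il18*, *Tnfsf10* and *Lcn2* were higher too.

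Interferon response and antigen presentation genes were higher in *KD2* in 16 of 47 tested cases and lower in 5, with a median of 0.67. The immunoproteasome subunit *Psmb8* was at 0.111, 0.0393 and 0.0403 CPM in *KD1* and 4.12, 4.16 and 6.25 CPM in *KD2* (6.10 ± 0.40), and the GTPase *Iigp1* at 0.148, 0 and 0.121 and 2.51, 2.26 and 1.87 CPM (4.54 ± 0.43). *H2-D1*, a class I heavy chain, and *Nlrc5*, which activates class I genes, were higher with the GTPase genes *Gbp2*, *Gbp3*, *Gbp7*, *Igtp*, *Irgm2*, *Mx1* and *Mx2*, while 26 of the list were not called and 2 were not tested. *Oasl1* was lower, at 118, 117 and 113 CPM in *KD1* and 1.01, 0.899 and 1.23 CPM in *KD2* (-6.82 ± 0.12), as was *Ccl5*, at 21.7, 21.4 and 21.1 and 1.09, 1.63 and 1.82 CPM (-3.82 ± 0.15), with *Rsad2*, *Ifit1* and *Ifngr2*. For 20 of these 21 called genes *WT* was below both lines, by means and with no test.

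**Figure D4:**
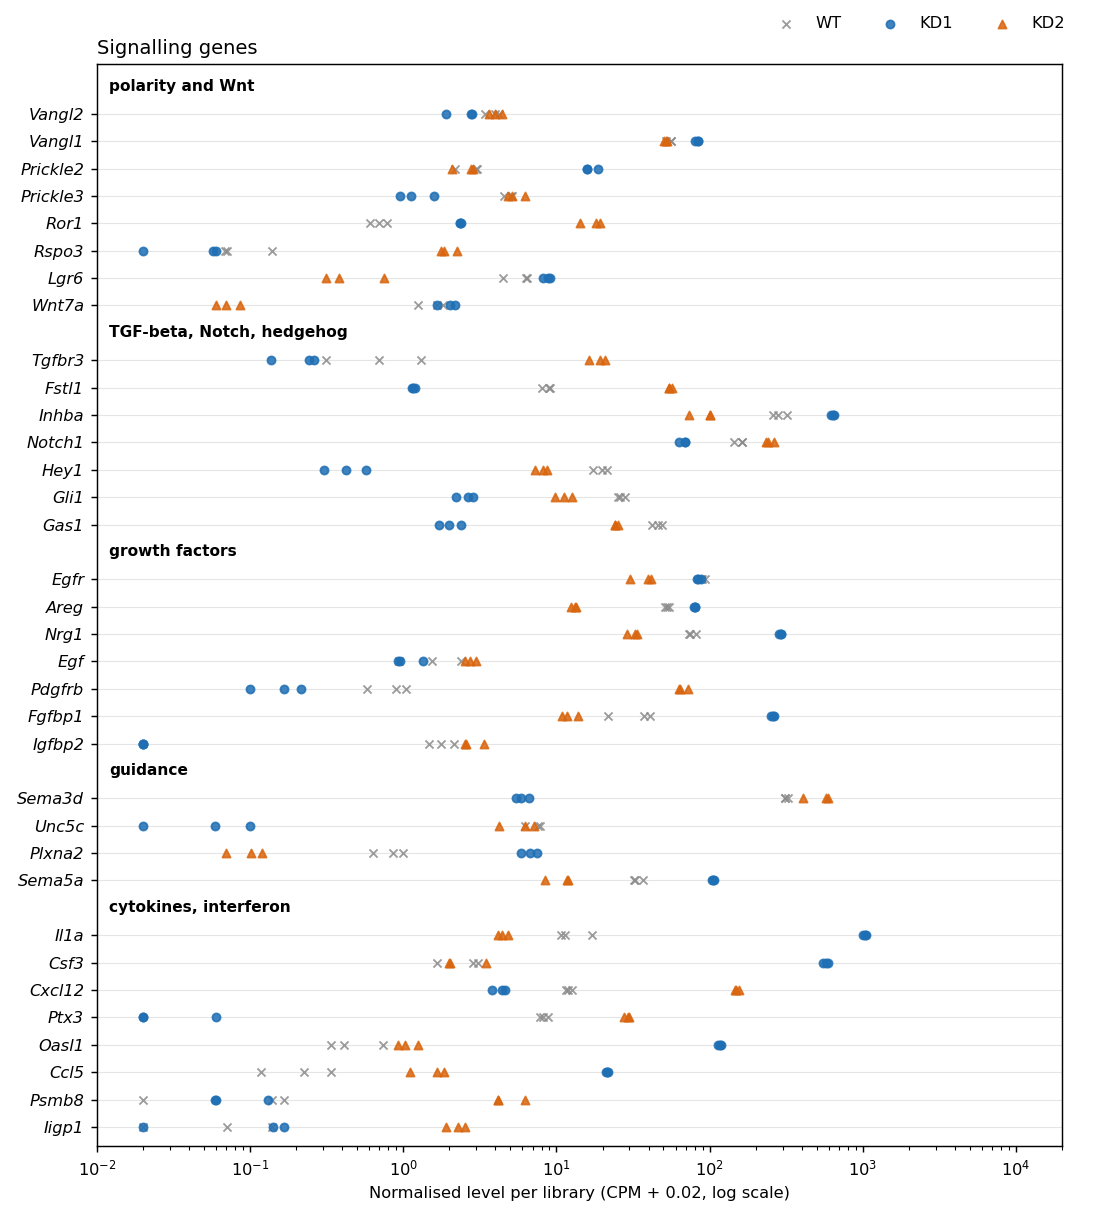
Normalised level of named signalling genes in each library, as CPM + 0.02 on a log axis (grey crosses *WT*, blue circles *KD1*, orange triangles *KD2*, 3 libraries each). *Il1a*, *Csf3*, *Oasl1*, *Fgfbp1* and *Plxna2* lie far to the right in *KD1*, *Pdgfrb*, *Sema3d*, *Tgfbr3* and *Ptx3* far to the right in *KD2*, and *Vangl2* and *Vangl1* differ little.

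Proliferation genes did not separate the lines by 2-fold. Of 35 tested, 0 were called in either direction by edgeR or by DESeq2, and their log2 fold changes ran from -0.98 to 0.62 with a median of -0.19. At an unadjusted p under 0.05, 5 were higher and 19 lower in *KD2*, and the counts were the same at an adjusted p under 0.05. Both directions together were 68.6% of the list against 70.2% of all genes tested, near the background. Within the list more genes were lower than higher, by less than 2-fold, and the balance of directions over all genes at that limit was not counted. By flow cytometry of DNA content, a measure unlike RNA, the paper noted a larger share of S phase cells in *KD1*. It proposes that *KD1* proliferated more than *KD2*. The proliferation antigen *Mki67* was at 844, 872 and 889 CPM in *KD1* and 948, 921 and 749 CPM in *KD2*, with a log2 fold change of 0.01 ± 0.08 (adjusted p = 0.95), a sign that several settings turn. Among 19 tested cyclins and CDK inhibitors, with 1 not tested, cyclin D1 (*Ccnd1*) and *Cdkn1a* were lower in *KD2* and *Cdkn2b* was higher. The shares lower and higher were 10.5% and 5.26%, against 8.58% and 14.7% of all genes tested, too few genes for a result about the list. *Cdkn2b* had a log2 fold change of 1.01 ± 0.11, a call that DESeq2 did not make and that was lost without *KD2* replicate 3. *Ccnd1*, which drives entry into S phase, was at 1546, 1587 and 1501 CPM in *KD1* and 627, 616 and 649 CPM in *KD2* (-1.29 ± 0.05), with an antisense gene over 23.4% of its exon bases.

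Markers of cell types that an epithelial culture should lack were checked as well. The summed level of 11 fibroblast markers was 8.14 to 10.2 CPM in *KD1*, 90.6 to 101 CPM in *KD2* and 17.5 to 23.3 CPM in *WT*. Of the 6 that were tested 5 were higher in *KD2*, and *Pdgfrb* made up most of the sum there. *Dcn*, *Lum*, *Dpt*, *Fap* and *Thy1* were not tested, with at most 9 counts in any library, and *Dpt* was at 0 in all. The fibroblast markers moved with the matrix genes, but the lists share members, among them *Col1a2*, *Dcn* and *Lum*, so they are not independent. The part of fibroblast markers in the matrix result was not tested. Endothelial, haematopoietic, adipocyte, and neural or muscle markers summed to 1.52 to 5.85, 4.93 to 8.68, 0.688 to 3.47 and 9.12 to 25.1 CPM over the 6 libraries. Of these lists 9 genes were tested, of which *Lyz2*, *Syt1* and *Des* were higher and *Pecam1*, *Fabp4* and *Tubb3* lower in *KD2*.

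The difference also varied by chromosome. Genes on chromosome 13 had a median log2 fold change of -0.61 between the lines, those on X of -0.53 and those on 14 of -0.48, while the medians of chromosomes 2, 17 and 9 were 0.32, 0.26 and 0.26. On chromosome 13, 42 of 593 tested genes were higher (7.08%) and 140 lower (23.6%) in *KD2*. Over genes at 1 CPM or more in each line, chromosome 13 stood at a median of -0.07 in *KD1* and -0.70 in *KD2* relative to *WT*, and X at -0.10 and -0.63. Both values share the *WT* libraries. The named genes *Itga2*, *Inhba*, *Fst*, *Tgfbi* and *Slc28a3* on 13, *Plau* and *Gjb2* on 14 and *Vegfd* and *Slc6a14* on X were lower in *KD2* by more than the median of their chromosome, and *Gas1* on 13, *Gzmf* on 14 and *Prickle3* on X were higher. What sets the chromosome medians was not tested.

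**Figure D5:**
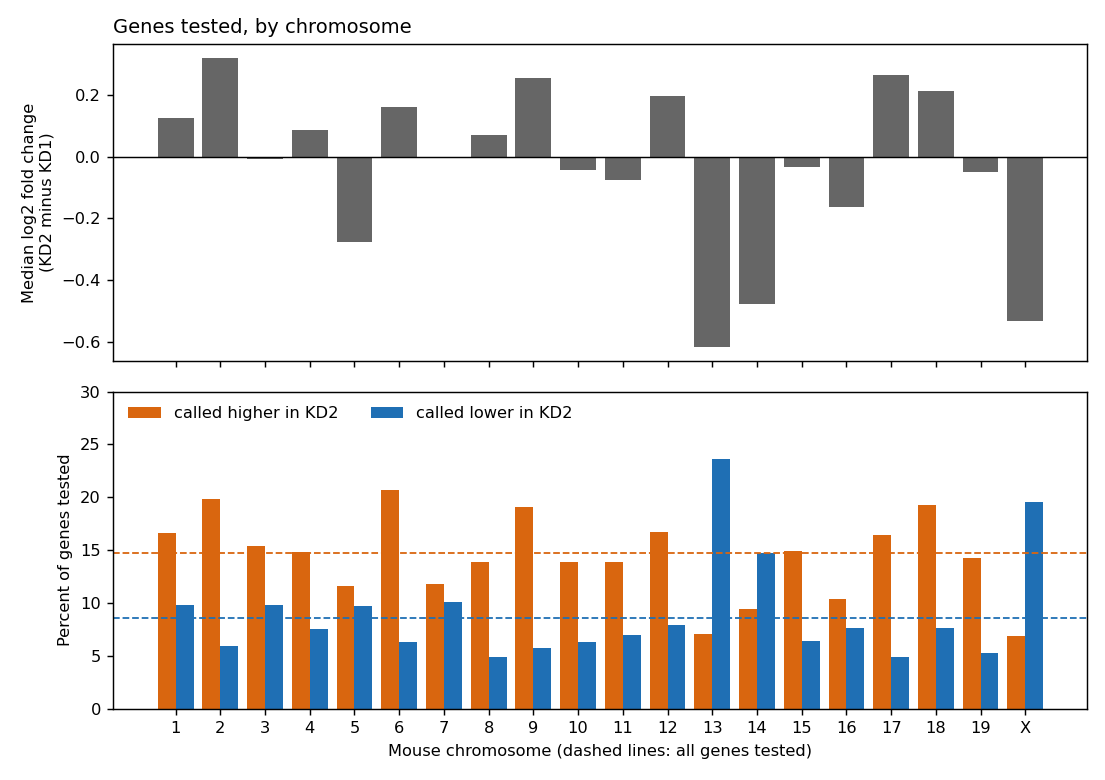
Upper panel, the median log2 fold change (*KD2* minus *KD1*) of the genes tested on each chromosome, and lower panel, the percent of those genes called higher (orange) or lower (blue) in *KD2*, with dashed lines at 14.7% and 8.58% for all genes. Chromosomes 13, 14 and X have medians of -0.61, -0.48 and -0.53, and there more genes were lower than higher.

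The mean of the parent line was between those of *KD1* and *KD2* for 2182 of the 3556 called genes (61.4%) and for 5779 of all 15253 tested (37.9%). Called genes were chosen for a wide gap between the edited lines, which by itself leaves more room for another mean to fall between, so nothing is read from the difference of these shares. The share was 76.4% of the 72 called adhesion genes, 66.2% of the 65 cell state genes, 58.7% of the 75 matrix genes and 47.8% of the 157 signalling genes. By list it ran from 1 of 21 interferon genes, 1 of 4 hedgehog genes, 2 of 7 Notch genes and 3 of 10 lineage and milk genes, through 3 of 6 laminin and basement membrane genes, to 15 of 20 collagens, 12 of 16 tight junction genes, 10 of 12 mesenchymal genes and 8 of 9 cadherins and catenins. Cytokines differed from that, with *WT* below both lines for 17 of 29 called genes and above both for 0 of them, against 27.5% and 11.1% of all called genes, by means and with no test.

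Among called genes at a mean of 10 CPM or more in the higher line, the 6 with the largest changes that were high in *KD2* were *Ptx3*, *Gzmf*, *Samd5*, *Olfml2b*, *Col9a1* and *Mme*. *Mme*, the surface peptidase CD10 of mammary basal cells, was at 1.22, 1.65 and 1.81 CPM in *KD1* and 1121, 1130.0 and 828 CPM in *KD2* (9.36 ± 0.16, 659-fold). Granzyme F (*Gzmf*), known from cytotoxic lymphocytes, had 1 count in all of *KD1* and 17.4, 16.7 and 17.2 CPM in *KD2*, but shares 34.9% of its windows with other genes. *Samd5*, at 25.9, 25.5 and 18.3 CPM in *KD2*, and *Olfml2b*, at 12.2, 12 and 14.5 CPM, had 2 and 1 counts in *KD1*. Each was at or below the floor of 3 counts in every *KD1* library. Those high in *KD1* were *Lilr4b*, *Slc6a14*, *Gm7897*, *Sprr2g*, *Sprr2h* and *Slc28a3*. The amino acid transporter *Slc6a14* was at 83.8, 72.6 and 86.7 CPM in *KD1* and 0.162, 0.0666 and 0.148 CPM in *KD2* (-9.34 ± 0.23) and the nucleoside transporter *Slc28a3* at 16.5, 16.2 and 16.9 CPM in *KD1*, with 2 counts in *KD2*. *Lilr4b*, a receptor known from myeloid cells, was at 85.3, 73.5 and 81.1 and 0.0808, 0.0999 and 0.148 CPM (-9.48 ± 0.17) and shares 37.3% of its windows, mostly with *Lilrb4a*. *Gm7897* was at 17.2, 17.5 and 19.3 CPM in *KD1* and had 2 counts in *KD2*.

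Of the 111 named genes that were called, 109 were called again without *KD2* replicate 3, and *Krt10* and *Stat5a* fell below the fold limit. Both also fell below it without *KD1* replicate 3, and *Stat5a* without *KD1* replicate 1. No list count changed by more than 1 gene without that library.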

How the data were processed

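Poly-A RNA of HC11 cells was sequenced in 9 libraries. The authors deposited raw read counts per gene, made by featureCounts from fastp-trimmed reads that HISAT2 had mapped to GRCm38. The versions and the strand setting are not given in the sources used here, and the kit does not mark strand, so reads of overlapping antisense genes cannot be told apart. All 9 columns of the table name a sample. Of 55228 genes, 31678 had a count and 15253 passed edgeR's filterByExpr.

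Counts were scaled by TMM and fitted in 1 model of the 3 lines with edgeR 4.0.16 in R 4.3.3 (glmQLFit, glmQLFTest), with the contrast *KD2* minus *KD1* and Benjamini-Hochberg adjustment over all genes tested. The replicate number was not used as a block. Depth was 19231428 to 28360592 counts in the edited lines, and the floor of 3 counts was 0.0999 to 0.148 CPM in them. Against a line without a count the fold is a bound at 3 counts a library, and against 1 to 3 counts a ratio of sums with an exact 95% interval, which covers counting error only. On simulated counts for 14137 genes of this comparison, 100% of genes changed 4-fold were called, and 1 of 13937 unchanged genes. That simulation changed only 200 genes, all expressed in *KD1* and as many up as down. It set *WT* equal to *KD1* and held no library that stood apart, so these rates need not hold for the data.

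Gene lists and members were chosen with earlier results of these data known, and a gene that several lists hold counts in each. Named are 36 anchor genes, up to 2 called genes per list and direction with the largest change at 1 CPM or more, and the 6 largest changes per direction at 10 CPM or more. Apart from the anchor genes, a named gene had to be called, without overlap between the *KD1* and *KD2* libraries. Positions come from GENCODE M21 and matched 53456 gene names directly, 138 by an older name and 113 to several genes, with 1521 unmatched. Genes sharing over 20% of their 31-base windows or exon bases with others are called uncertain. Promoters are from RefSeq (GRCm38.p6). DESeq2 1.42.0, other scalings, filters, samples and limits, a replicate block and leaving out each library were tried as alternatives. 1 gene among the named genes is not reported here.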

Additional observations from a re-analysis of the deposited data

How the results depend on the processing

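Over all genes the counts higher and lower in *KD2* were 2247 and 1309, and they were 2176 and 1311 by DESeq2, 2556 and 1118 with library size alone, 2185 and 1297 with only the 6 edited libraries in the fit, 1597 and 943 by glmTreat against a 2-fold change, 3138 and 1801 without a filter on low counts, and 2302 to 2412 and 1326 to 1391 when a library was left out. A filter of at least 10 counts in every library, which removes genes that were absent from 1 line, gave 1181 and 733, with 15 and 25 cell state genes, 18 adhesion genes higher, 39 and 8 matrix genes and 62 signalling genes higher. Every other count of a theme was within 1.5 times its value. The same replicate numbers did not deviate together in the lines (correlations -0.038 to -0.020), and a replicate block gave 2241 and 1311 genes. Leaving out each library gave 23 to 26 and 40 to 41 cell state genes, 35 to 39 and 34 to 36 adhesion genes, 62 to 64 and 13 to 16 matrix genes and 97 to 105 and 55 to 58 signalling genes.

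Among named genes the sign turned only for 3 that were not called. *Ctnnb1* was at -0.21 when centred on its chromosome. *Tjp1* was at 0.033 with library size alone, and from -0.14 to 0.0069 when a library was left out, above 0 only without *KD2* replicate 3. *Mki67* was at -0.00444 by DESeq2, -0.00441 with median-of-ratios scaling and -0.033 without a filter, and from -0.059 to 0.11 when a library was left out, below 0 without *KD1* replicate 1, *KD2* replicate 1 or *KD2* replicate 2. The cause was not tested. Low counts limit the folds of genes that were nearly absent from 1 line.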
